A study of Mus musculus with 30 samples.

Results

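Peptide presentation to T cells in aorta and kidney was described through 45 genes of the MHC and of the antigen presentation pathway. They comprised the 35 protein-coding genes whose symbol begins with H2 (the name of the mouse MHC) and 10 genes chosen by name: B2m, Cd74, Ciita, Tap1, Tap2, Tapbp, Psmb8, Psmb9, Psmb10 and Nlrc5. Both tissues listed the same 45 among 41128 genes, of which 22026 were protein-coding, and 40 of the 45 lie on chromosome 17. All mice were males of the C57Bl6J background, and all received tamoxifen at 1 mg per day for 5 days. KO mice carried floxed Egfr alleles (Egfr flox/flox) and the tamoxifen-inducible Cre-ERT2 driven by the Smmhc (Myh11) promoter, so that the EGF receptor is deleted in smooth muscle and not in the other cells of either organ. WT mice had this Cre too but no loxP sites. Standard fat diet (SFD) or high fat diet (HFD) was fed for 18 weeks from 6 weeks of age, which was 7 days after tamoxifen. Total RNA depleted of ribosomal RNA was sequenced from single mice: 14 aortae (3 WT-SFD, 4 WT-HFD, 3 KO-SFD and 4 KO-HFD) and 16 kidneys (4 per group). Only 3 mice gave both tissues.

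MHC class I molecules pair a heavy chain such as H2-K1 or H2-D1 with beta 2 microglobulin (B2m) and show peptides from inside the cell to CD8+ T cells. The peptides are cut by the immunoproteasome (Psmb8, Psmb9, Psmb10), pumped into the endoplasmic reticulum by Tap1 and Tap2 and loaded with the help of tapasin (Tapbp), and Nlrc5 switches many of these genes on. MHC class II molecules (H2-Aa with H2-Ab1 in these mice) occur mainly on dendritic cells, macrophages and B cells, travel with the invariant chain Cd74 and are exchanged onto new peptides by H2-DM (H2-DMa with H2-DMb1 or H2-DMb2), which H2-O (H2-Oa with H2-Ob) restrains. Ciita is the master activator of class II genes. The kidney holds a network of class II positive dendritic cells and macrophages between its tubules, while smooth muscle of the aorta makes class I and little class II.

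Values are FPM, the deposited counts scaled to 1000000 per library with TMM factors, or FPKM, which is FPM per kilobase of exon and was used wherever genes are set against each other. The quasi-likelihood test of edgeR was run over all genes of a tissue, a gene is called changed where its Benjamini-Hochberg adjusted p is under 0.05, and log2 fold changes stand with their SE. The total count was 6403699 to 13052870 per aorta and 16354880 to 28331314 per kidney. The 45 genes took 0.0620% to 0.158% of the counts in the aorta (median 0.0892%) and 0.202% to 0.350% in the kidney (median 0.255%). All protein-coding genes together took 42.6% to 63.9% of the counts of an aorta and 85.2% to 86.6% of those of a kidney. Shares, FPM and FPKM of the tissues thus rest on totals of unlike make-up.

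In the aorta 27 of the 45 genes had enough counts for the test, and the kidney had 33. H2-Ke6, a steroid dehydrogenase that bears the MHC's name through its position, H2-Oa, H2-Eb2, H2-Q2, H2-Bl and H2-M2 passed in the kidney and not in the aorta. In neither tissue did Psmb10, H2-T3, H2-M11, H2-M9, H2-M1, H2-M5 or the 6 genes H2-M10.1 to H2-M10.6 pass. The H2-M10 proteins are known from sensory neurons of the vomeronasal organ. There was no count in any library for 4 of the 45 in aortae and 5 in kidneys, among them Psmb10, whose region of chromosome 8 had no counts for any gene, so nothing can be said of this subunit.

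Egfr itself set the aortae of the genotypes apart. In the aorta Egfr stood at 46.7, 39.5 and 54.3 FPM in WT-SFD, 65.1, 57.0, 51.2 and 57.0 FPM in WT-HFD, 26.8, 35.5 and 28.0 FPM in KO-SFD, and 27.5, 40.6, 39.7 and 33.4 FPM in KO-HFD. The genotypes overlapped where 2 KO-HFD aortae (40.6 and 39.7 FPM) passed the lowest WT aorta (39.5 FPM). Egfr was lower in KO than in WT by a log2 fold change of -0.67 ± 0.11 over both diets (edgeR, adjusted p = 0.0132). In the kidney, where few cells are smooth muscle, Egfr showed a log2 difference of -0.00 ± 0.09 (adjusted p = 0.998). The smooth muscle markers summed to between 9504 and 17239 FPM in the aortae, led by Acta2, and the tubule markers to between 15169 and 18177 FPM in the kidneys, led by Slc34a1.

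Some libraries stood apart from their group. Aorta KO-HFD-1503 had the highest value of its group for most class II genes and for H2-K1 and H2-D1, and aorta KO-SFD-1319 was similarly high. Adipocyte markers were high in the aortae of WT-SFD-1309, WT-SFD-1310, KO-SFD-1319 and KO-SFD-1452, although the aortae had been freed of surrounding fat. B cell markers were high in kidney KO-HFD-1504.

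The level of the genes followed the same broad order in both tissues, with B2m first. The tissues were sequenced at different places and were not tested against each other, so the following levels are a description. In the aorta the median FPKM was 367 for B2m, 40.9 for H2-D1, 29.9 for Cd74, 25.4 for Tapbp and 25.1 for H2-K1. The kidney had 275 FPKM for B2m, 185 for H2-D1, 154 for H2-K1, 139 for Cd74 and 91.7 for H2-Ab1. Thus the class I chains H2-D1 and H2-K1 led the heavy chains in both, and the class II chains had a higher rank in the kidney: H2-Ab1, H2-Eb1 and H2-Aa had 91.7, 72.4 and 23.2 FPKM there, against 6.41, 5.76 and 4.36 FPKM in the aorta. Among the nonclassical class I genes H2-T23 (Qa-1, a ligand of NK cell receptors) had 62.5 FPKM in the kidney and 6.24 in the aorta. Ciita was low in both, with 0.487 FPKM in aortae and 0.593 in kidneys. The lowest genes that passed were H2-Ob in the aorta (0.197 FPKM) and H2-Eb2 in the kidney (0.0857 FPKM).

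**Figure D1:**
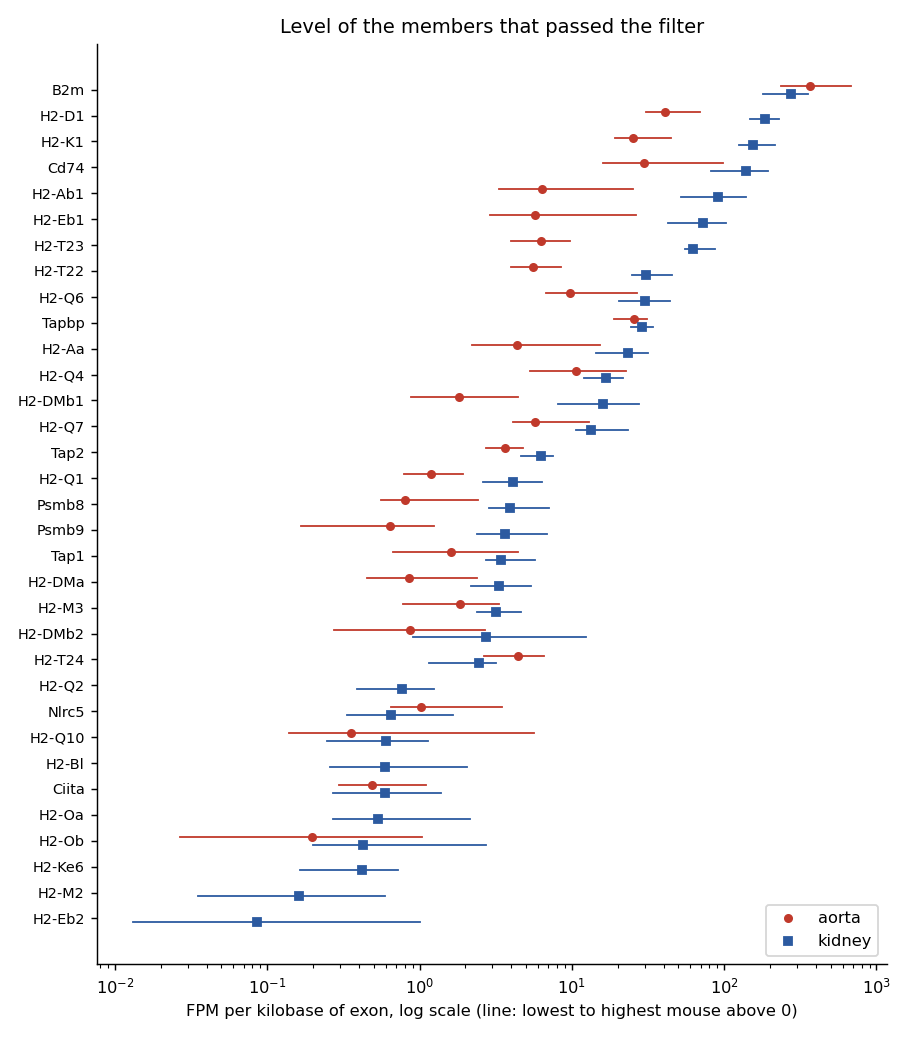
Level of each MHC and antigen presentation gene that passed the low count filter, as FPM per kilobase of exon on a log axis. The symbol is the median over 14 aortae (circles) or 16 kidneys (squares) and the line runs from the lowest to the highest mouse above 0. B2m leads in both tissues (367 and 275 FPKM) and H2-Ab1 has 6.41 FPKM in the aorta and 91.7 in the kidney.

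Reads could be shared between some of these genes, since how reads that map to several places were counted is not given in the sources used here. Of the stretches of 100 bases (the read length) in the exons and transcripts of each gene, 31.5% of those of H2-T22 occurred in another gene, mostly in A930015D03Rik on the opposite strand, 13.0% of those of H2-Q6, 12.0% of H2-Q7, 14.1% of H2-Q4, 8.01% of H2-Q10 and 3.59% of H2-D1. H2-DMb1 and its neighbour H2-DMb2 shared 11.3% and 10.3% of theirs with each other. B2m, H2-Aa, H2-Ab1, H2-Eb1 and Cd74 shared none. The largest share was that of H2-Ke6, with 61.6% in Gm20427, and Tapbp had 14.8%, H2-Oa 8.98%, Psmb8 8.05% and H2-DMa 6.58%. These shares are of sequence, and how many counts of each gene came from its partners was not measured.

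Class II promoters carry a conserved module whose last element, the Y box, is an inverted CCAAT sequence bound by NF-Y, and Ciita acts through this module. The promoters (RefSeq, GRCm38.p6, 250 bases before to 50 after the start) of 37 of the 45 genes were searched on both strands. The Y box core CTGATTGG occurred in 19 of the 37 and in 4.31% of all 27025 promoters. The class II genes among the 19 were H2-Oa, H2-Aa, H2-Eb1 and H2-Eb2, and the others were class I genes, Psmb9 and Tap1. The shorter ATTGG, which lies within the Y box core, occurred in 31 of the 37 and in 37.9% of all. The interferon element GAAANNGAA occurred in 3 of the 37 (B2m, H2-T23 and H2-T22) and in 8.57% of all, the gamma activated site TTCNNNGAA in 4 and in 8.47%, and the kappaB sequence GGGATTCC in 4 (H2-K1, H2-D1, H2-Q6 and H2-Q7) and in 1.07%. Many of the 37 are copies of each other by descent, and a match of letters is a description only.

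The windows below are shown because these genes carry the results that follow (H2-DMb1, B2m and H2-T22 in the kidney, H2-Q10 in the aorta) or are the class II and class I chains to read them against. They are written 5′ to 3′ on the strand of the gene, and capitals mark the Y box core or, where it is absent, ATTGG on either strand, and the interferon element. H2-Aa (chr17:34287844-34287933, minus strand) and H2-Eb1 (chr17:34305757-34305846, plus strand) hold the whole Y box core. H2-DMb1 (chr17:34153116-34153145, plus strand) holds the shorter form.
H2-Aa: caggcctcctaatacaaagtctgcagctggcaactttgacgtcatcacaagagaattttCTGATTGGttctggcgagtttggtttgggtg
H2-Eb1: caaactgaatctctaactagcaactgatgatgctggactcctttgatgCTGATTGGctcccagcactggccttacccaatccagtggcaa
H2-DMb1: tgattcactcagtgATTGGtctgacctgcc

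B2m (chr2:122147537-122147656, plus strand) and H2-T22 (chr17:36042793-36042952, minus strand) hold an interferon element together with ATTGG, and H2-T22 has it in reverse. H2-D1 (chr17:35263029-35263058, plus strand) holds the Y box core in reverse. H2-Q10 (chr17:35469909-35470048, plus strand), a class I gene known for its secreted protein from the liver, had none of the 5 motifs anywhere in its 300 bases.
B2m: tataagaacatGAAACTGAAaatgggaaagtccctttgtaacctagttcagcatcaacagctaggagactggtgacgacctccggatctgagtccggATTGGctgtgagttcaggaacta
H2-T22: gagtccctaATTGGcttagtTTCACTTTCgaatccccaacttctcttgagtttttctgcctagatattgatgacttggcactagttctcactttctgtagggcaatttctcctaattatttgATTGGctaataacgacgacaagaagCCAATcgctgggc
H2-D1: agattccaggagCCAATCAGcgtcgccgcg
H2-Q10: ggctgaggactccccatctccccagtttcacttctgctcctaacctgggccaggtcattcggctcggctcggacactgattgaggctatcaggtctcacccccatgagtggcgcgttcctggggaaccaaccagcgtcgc

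In the kidney HFD raised H2-DMb1, the beta chain of the class II peptide exchange factor, and, over both genotypes, B2m, the common light chain of class I, while the nonclassical class I gene H2-T22 fell. These were 3 of the 33 genes tested, 2 higher and 1 lower, beside 4.62% of all 15034 genes called in the same comparison of HFD with SFD averaged over the genotypes. The fold change was above 0 for 26 of the 33 and below it for 7, with a median of 0.20 against -0.01 over all genes. Leaving out 1 kidney moved this median to between 0.09 (without KO-HFD-1504) and 0.26 (without WT-SFD-1694). An unadjusted p under 0.05 was reached by 9 of the 33 (7 higher, 2 lower), beside 18.2% of all genes.

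H2-DMb1 (chr17:34153072-34160230) stood at 14.9, 13.7, 19.4 and 15.8 FPM in the 4 WT-SFD kidneys and at 33.6, 44.7, 25.0 and 31.8 FPM in the 4 WT-HFD kidneys. Every WT-HFD kidney was thus above every WT-SFD kidney, and the group means were 15.9 ± 2.44 and 33.8 ± 8.17 FPM (SD, n = 4 each). In KO the values were 22.0, 39.2, 23.7 and 21.7 FPM on SFD and 29.0, 46.2, 41.5 and 41.9 FPM on HFD. Here the diets overlapped through KO-SFD-1318, the single high mouse of its group, and the means were 26.6 ± 8.40 and 39.7 ± 7.42 FPM. HFD raised H2-DMb1 by a log2 fold change of 1.08 ± 0.21 in WT (edgeR, adjusted p = 0.0163) and of 0.83 ± 0.15 over both genotypes (adjusted p = 0.0027). In KO the log2 fold change was 0.58 ± 0.21 (adjusted p = 0.174). KO minus WT, the diet effect differed by -0.50 ± 0.29, which did not pass the test (adjusted p = 1.00). Leaving out any 1 of the 16 kidneys kept the call over both genotypes, with log2 fold changes of 0.75 to 0.95. The WT call was lost without WT-SFD-1309, WT-SFD-1446 or WT-SFD-1695 or WT-HFD-1613 (adjusted p up to 0.0590). The WT log2 fold change stayed between 0.92 and 1.19 in the 8 fits that left out 1 WT kidney. The KO difference passed in 1 of the 8 fits that left out 1 KO kidney, with log2 fold changes from 0.48 without KO-HFD-1504 (adjusted p = 0.363) to 0.82 without KO-SFD-1318 (adjusted p = 0.0364).

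None of the partners of H2-DMb1 passed the test over both genotypes. H2-DMa, the alpha chain of the same complex, had 7.48, 8.17, 11.3 and 8.79 FPM in WT-SFD and 14.6, 18.7, 11.5 and 11.3 FPM in WT-HFD. The highest WT-SFD and the lowest WT-HFD kidney met at 11.3 FPM, with a log2 fold change of 0.64 ± 0.19 in WT (edgeR, adjusted p = 0.208). The KO kidneys had 10.9, 14.3, 11.5 and 13.7 FPM of H2-DMa on SFD and 10.4, 18.1, 13.2 and 13.9 FPM on HFD. These overlapped almost fully, with a log2 fold change of 0.15 ± 0.19 in KO (adjusted p = 0.731) and 0.39 ± 0.14 over both genotypes (adjusted p = 0.118). H2-DMb2, the second beta chain, ran from 1.57 to 8.26 FPM on SFD and from 3.06 to 21.7 FPM on HFD over the genotypes, and its log2 fold change of 0.94 ± 0.40 did not pass (adjusted p = 0.213). The highest H2-DMb2 value was that of KO-HFD-1504. H2-Ob, a chain of the inhibitor H2-O, was also highest there, at 14.8 FPM beside 1.39 to 4.01 FPM in the other 3 KO-HFD kidneys. The log2 fold change of H2-Ob over both genotypes was 0.86 (adjusted p = 0.324). Without KO-HFD-1504 the log2 fold changes were 0.52 for H2-DMb2 and 0.25 for H2-Ob (adjusted p = 0.489 and 0.763).

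B2m (chr2:122147686-122153083) had 165, 188, 247 and 207 FPM in WT-SFD, 307, 278, 232 and 237 FPM in WT-HFD, 191, 181, 155 and 256 FPM in KO-SFD, and 237, 303, 255 and 292 FPM in KO-HFD. WT-SFD-1694 and KO-SFD-1451 reached into the range of the HFD mice and the other 6 SFD kidneys lay below all 8 HFD kidneys. The means rose from 202 ± 34.8 to 263 ± 35.4 FPM in WT and from 196 ± 43.1 to 272 ± 31.0 FPM in KO, a log2 fold change of 0.43 ± 0.11 over both (edgeR, adjusted p = 0.0321). Neither genotype passed alone, with 0.38 ± 0.15 in WT (adjusted p = 0.489) and 0.48 ± 0.15 in KO (adjusted p = 0.13), where it passed without KO-SFD-1451 (0.63, adjusted p = 0.0374). The call over both genotypes was kept in 8 and lost in 8 of the 16 fits that left out 1 kidney (WT-SFD-1309 and WT-SFD-1446, WT-HFD-1535, KO-SFD-1303, KO-SFD-1318 and KO-SFD-1319, KO-HFD-1504 and KO-HFD-1558), with adjusted p values of 0.00764 to 0.0720.

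H2-T22 (chr17:36037128-36042747) encodes a ligand of gamma delta T cells and moved the other way. It had 108, 105, 131 and 132 FPM in WT-SFD, 84.3, 114, 104 and 93.1 FPM in WT-HFD, 98.7, 154, 114 and 133 FPM in KO-SFD, and 95.04, 91.4, 98.3 and 94.6 FPM in KO-HFD. The 4 KO-HFD kidneys were close together and all below KO-SFD, while the WT groups overlapped. Over both genotypes the log2 fold change was -0.33 ± 0.09 (edgeR, adjusted p = 0.0464), with -0.27 ± 0.13 in WT (adjusted p = 0.629) and -0.40 ± 0.13 in KO (adjusted p = 0.129), where it passed without KO-SFD-1303 (-0.50, adjusted p = 0.0490). This call was lost in 11 of the 16 fits that left out 1 kidney (adjusted p up to 0.0936) and kept without WT-SFD-1309 or WT-SFD-1446, WT-HFD-1613 or KO-SFD-1303 or KO-SFD-1319. It was also lost without a low count filter (adjusted p = 0.0521) and with the adipocyte covariate (adjusted p = 0.0618). The gene A930015D03Rik covers 29.4% of the exon bases of H2-T22 on the opposite strand and had at most 4 counts in a kidney, beside 1552 to 3827 counts of H2-T22.

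The class II chains stood higher on HFD without passing the test. H2-Ab1, the class II beta chain, had 134, 185, 216 and 194 FPM in WT-SFD and 282, 340, 238 and 233 FPM in WT-HFD, with no overlap. In KO it had 199, 300, 194 and 239 FPM on SFD and 230, 355, 265 and 282 FPM on HFD, which did overlap. The log2 fold change of H2-Ab1 was 0.43 ± 0.13 over both genotypes (edgeR, adjusted p = 0.0624). It passed with DESeq2 (adjusted p = 0.0234), with library totals in place of TMM (adjusted p = 0.0448), and without KO-SFD-1318 (adjusted p = 0.0279) or KO-HFD-1437 (adjusted p = 0.0447). The invariant chain Cd74 had a log2 fold change of 0.30 ± 0.14 (adjusted p = 0.273), H2-Aa 0.26 ± 0.13 (adjusted p = 0.308), H2-Eb1 0.27 ± 0.14 (adjusted p = 0.313) and the activator Ciita 0.63 ± 0.23 (adjusted p = 0.138). Ciita was highest in WT-HFD-1535 (10.5 FPM) and KO-HFD-1504 (13.3 FPM), and the other 14 kidneys had 2.58 to 7.47 FPM. Without KO-HFD-1504 the log2 fold change of Ciita was 0.44 (adjusted p = 0.31), and without WT-SFD-1694 it was 0.83 and passed (edgeR, adjusted p = 0.0438).

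**Figure D2:**
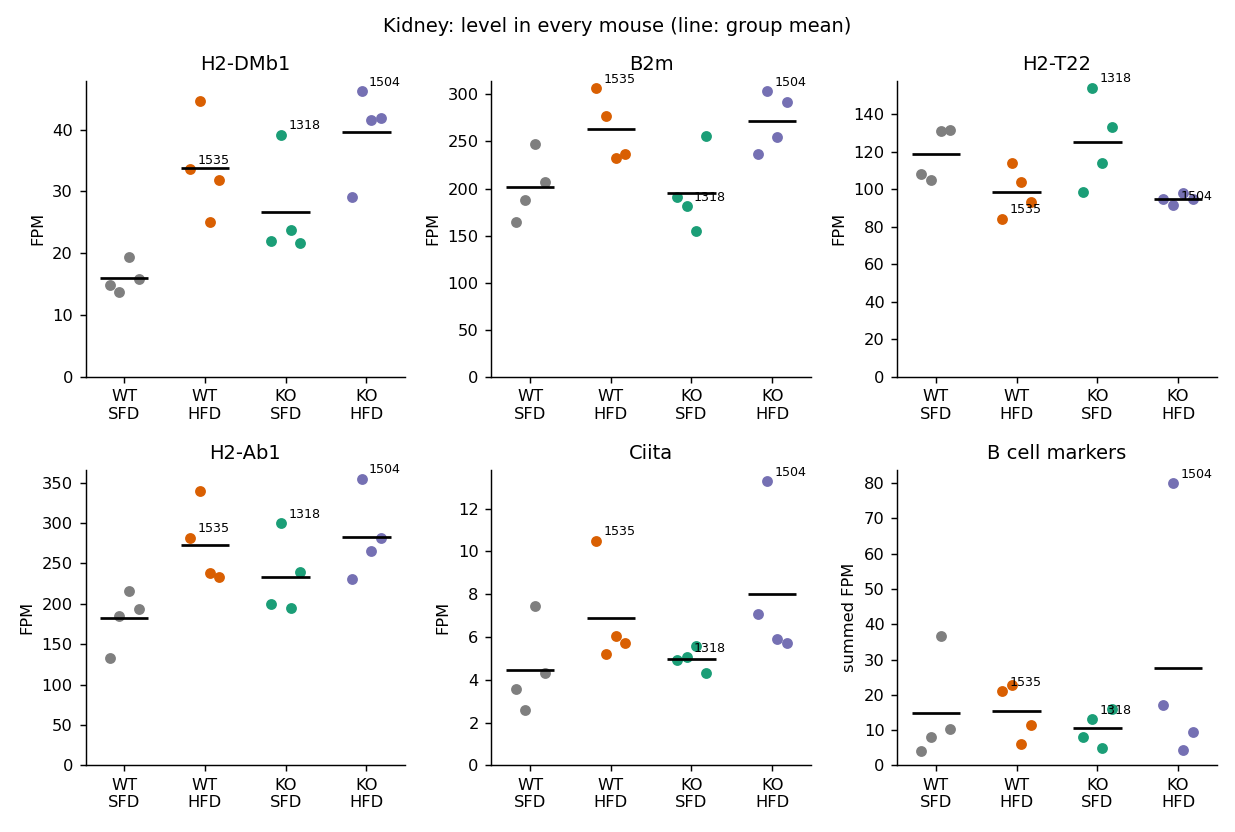
Kidney levels in FPM of H2-DMb1, B2m, H2-T22, H2-Ab1 and Ciita, and the summed FPM of the 8 B cell markers, for each of the 16 mice in 4 groups (points), with the group mean (line). H2-DMb1 is 13.7 to 19.4 FPM in WT-SFD and 25.0 to 44.7 FPM in WT-HFD, and KO-HFD-1504 is the highest mouse for H2-DMb1, H2-Ab1, Ciita and the B cell markers.

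The classical class I heavy chains and the processing genes showed small differences between the diets. H2-K1 ranged from 368 to 636 FPM and H2-D1 from 379 to 595 FPM over the 16 kidneys, with log2 fold changes of 0.06 ± 0.11 (edgeR, adjusted p = 0.825) and 0.09 ± 0.08 (adjusted p = 0.579). The transporters Tap1 (0.13 ± 0.16) and Tap2 (0.07 ± 0.10), tapasin (Tapbp, -0.11 ± 0.07) and the immunoproteasome subunits Psmb8 (0.09 ± 0.20) and Psmb9 (0.20 ± 0.21) had adjusted p values of 0.391 to 0.855. The class I activator Nlrc5 had a log2 fold change of 0.48 ± 0.30 (adjusted p = 0.427).

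Markers of immune cells were measured in the same kidneys. The leucocyte markers (6 of 6 tested, most abundant Coro1a) summed to 47.5, 63.7, 97.3 and 54.2 FPM in WT-SFD and 81.9, 96.6, 65.7 and 78.0 FPM in WT-HFD. The KO kidneys had 57.4, 59.5, 38.5 and 70.0 FPM on SFD and 76.5, 176.6, 54.8 and 62.5 FPM on HFD, where KO-HFD-1504 was the highest. All 6 leucocyte markers had fold changes above 0 over both genotypes and none was called, with Ptprc (CD45) between 4.91 and 30.5 FPM. The B cell markers (8 of 8 tested, most abundant Cd79a, with Pax5 at 0 in the lowest mouse) summed to 3.96 to 36.8 FPM in all kidneys except KO-HFD-1504, with 80.0 FPM. Of 8 dendritic cell markers 2 rose: Itgax (CD11c) by 0.83 ± 0.14 (edgeR, adjusted p = 0.00188) and Clec9a, a receptor of cross-presenting dendritic cells, by 0.57 ± 0.14 (adjusted p = 0.0225), beside 4.62% of all genes called. The other 6 did not pass, and Cd209a (DC-SIGN) was the 1 of the 8 with a fold change below 0 (-0.56 ± 0.32, adjusted p = 0.388). Itgax had 3.83 to 5.04 FPM in WT-SFD, 5.69 to 10.3 FPM in WT-HFD, 3.77 to 6.12 FPM in KO-SFD and 6.29 to 8.61 FPM in KO-HFD. Of the macrophage markers (10 of 11 tested, most abundant Csf1r by median) 8 had fold changes above 0 and 2 below, and none was called. They summed to 244, 287, 346 and 239 FPM in WT-SFD and 334, 382, 294 and 329 FPM in WT-HFD, and to 311, 343, 295 and 380 FPM in KO-SFD and 304, 406, 288 and 298 FPM in KO-HFD. The WT groups thus overlapped through WT-SFD-1694, and the KO groups overlapped widely. The T cell markers (8 of 9 tested, most abundant Lck, with Cd5 and Cd8b1 at 0 in the lowest mouse) gave no call either, and their sum was highest in KO-HFD-1504, at 28.1 FPM. The part of macrophages and T cells in these values was not tested. In tissue RNA more cells of a type and more RNA per cell cannot be told apart.

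With the mean of the leucocyte markers as a covariate, H2-DMb1 kept its change over both genotypes in the kidney (log2 fold change 0.72, edgeR adjusted p = 0.0142) and in WT (1.01, adjusted p = 0.0251). With the same covariate B2m (0.31, adjusted p = 0.0996) and H2-T22 (-0.35, adjusted p = 0.0676) no longer passed, and the log2 fold change was 0.25 for H2-DMb2 (adjusted p = 0.663), -0.08 for H2-Ob (adjusted p = 0.858), 0.28 for H2-Ab1 (adjusted p = 0.217) and 0.31 for Ciita (adjusted p = 0.454). H2-Ob thus turned its direction.

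Within WT kidneys H2-DMb1 was the 1 gene of the 33 called, beside 0.964% of all genes, and 5 (all higher) had an unadjusted p under 0.05, beside 8.05% of all genes. They were H2-DMb1, H2-DMa, H2-Ab1, B2m and H2-Eb1. Within KO kidneys edgeR and DESeq2 each called 0 of the 33, beside 2.39% of all genes by edgeR, and 7 (5 higher, 2 lower) had an unadjusted p under 0.05, beside 16.1%. Of these, H2-DMb1, H2-DMb2, H2-Ob, Ciita and B2m had higher values on HFD, and H2-T22 and H2-Bl lower ones. For the difference of the diet effect between KO and WT both tools called 0 of the 33, beside 0% of all genes by edgeR, and 0 had an unadjusted p under 0.05, beside 3.35%.

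For KO against WT, edgeR and DESeq2 each called 0 of the 33 genes in the kidney on either diet and over both. On SFD edgeR called 0.0133% of all genes, and 6 of the 33 (5 higher, 1 lower) had an unadjusted p under 0.05, beside 8.69%. H2-DMb1 had the smallest p of these, and all 4 KO-SFD kidneys were above all 4 WT-SFD kidneys, with a log2 difference of 0.73 ± 0.21 (adjusted p = 0.432). The others were H2-DMa, H2-D1, H2-K1 and H2-Bl with higher values and H2-T24 with lower values in KO. On HFD 0% of all genes were called and 0 of the 33 had an unadjusted p under 0.05, beside 1.75%. Averaged over the diets 0.0133% were called, and 2 of the 33, H2-DMb1 (0.48 ± 0.15, adjusted p = 0.821) and H2-T24 (-0.34 ± 0.16, adjusted p = 0.834), had an unadjusted p under 0.05, beside 5.93%.

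In the aorta 1 of the 27 genes tested, H2-Q10, fell on HFD in the comparison averaged over the genotypes, beside 3.95% of all 14796 genes called. The fold change was below 0 for 25 of the 27 and above it for 2, with a median of -0.38 against -0.00 over all genes. Leaving out 1 aorta moved this median to between -0.62 (without KO-HFD-1503) and -0.15 (without KO-SFD-1319). H2-Q10, H2-K1 and B2m, all with lower values on HFD, had an unadjusted p under 0.05, beside 18.8% of all genes.

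H2-Q10 (chr17:35470089-35474563) had 24.4, 12.0 and 1.16 FPM in WT-SFD and 1.63, 0.603, 1.36 and 1.02 FPM in WT-HFD. The KO aortae had 18.9, 5.01 and 2.08 FPM on SFD and 1.47, 2.16, 1.04 and 1.09 FPM on HFD. The 4 high values thus came from SFD mice of both genotypes, and WT-SFD-1445 and KO-SFD-1507 lay among or beside the HFD mice. The log2 fold change was -2.98 ± 0.57 over both genotypes (edgeR, adjusted p = 0.0168), -3.43 ± 0.81 in WT (adjusted p = 0.0683) and -2.54 ± 0.80 in KO (adjusted p = 0.526). It no longer passed without WT-SFD-1309 (adjusted p = 0.0573), WT-SFD-1310 (0.0512) or KO-SFD-1319 (0.0905), or with the leucocyte markers as a covariate (log2 fold change -2.68, adjusted p = 0.0653).

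The aortae with much H2-Q10 were those with high adipocyte markers. The 10 adipocyte markers, all tested, summed to 3680, 2763 and 141 FPM in WT-SFD, 163, 152, 247 and 221 FPM in WT-HFD, 2345, 820 and 154 FPM in KO-SFD, and 117, 191, 153 and 96.6 FPM in KO-HFD. Their most abundant gene by median was Pnpla2, Fabp4 reached 1290 FPM, Adipoq was never under 1.37 FPM, and Lep was at 0 in the lowest aorta. On HFD over both genotypes all 10 adipocyte and all 6 brown adipocyte markers had fold changes below 0, and edgeR called 9 and 5 of them lower, beside 3.95% of all genes called. With the mean of the adipocyte markers as a covariate the log2 fold change of H2-Q10 was -0.34 (edgeR, adjusted p = 0.928). High adipocyte markers occurred only in SFD aortae, so this fit cannot tell an effect of diet from a difference in adipocyte content. The kidney had 1.08 to 4.97 FPM of H2-Q10, with a diet difference of -0.22 ± 0.24 (adjusted p = 0.665).

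H2-K1, H2-D1 and B2m lay along the same mice to a lesser degree. H2-K1 had 132, 112 and 70.0 FPM in WT-SFD, 81.4, 64.0, 77.6 and 64.6 FPM in WT-HFD, 128, 77.7 and 67.5 FPM in KO-SFD, and 64.7, 112, 59.4 and 56.2 FPM in KO-HFD. The high aortae were WT-SFD-1309 and WT-SFD-1310 and KO-SFD-1319, with high adipocyte markers, and KO-HFD-1503, without them. These aortae were also the highest for the sum of 22 interferon-induced genes, described below. This sum was 254 and 250.7 FPM in WT-SFD-1309 and WT-SFD-1310, 274 FPM in KO-SFD-1319 and 340 FPM in KO-HFD-1503. KO-SFD-1452 came next with 207 FPM. The part of the interferon-induced genes in the H2-K1 differences was not tested. The log2 fold changes on HFD were -0.43 ± 0.19 for H2-K1 (edgeR, adjusted p = 0.229), -0.41 ± 0.18 for B2m (adjusted p = 0.246) and -0.36 ± 0.17 for H2-D1 (adjusted p = 0.271). With the adipocyte covariate they were 0.12 for H2-K1, 0.18 for B2m and 0.15 for H2-D1, none of which passed. Here too diet and adipocyte content cannot be told apart. Without KO-SFD-1319 the log2 fold changes were -0.27 for H2-K1, -0.26 for B2m and -0.21 for H2-D1, and without KO-HFD-1503 they were -0.56, -0.47 and -0.46. Without WT-SFD-1445 that of B2m was -0.53 and passed (edgeR, adjusted p = 0.0392).

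**Figure D3:**
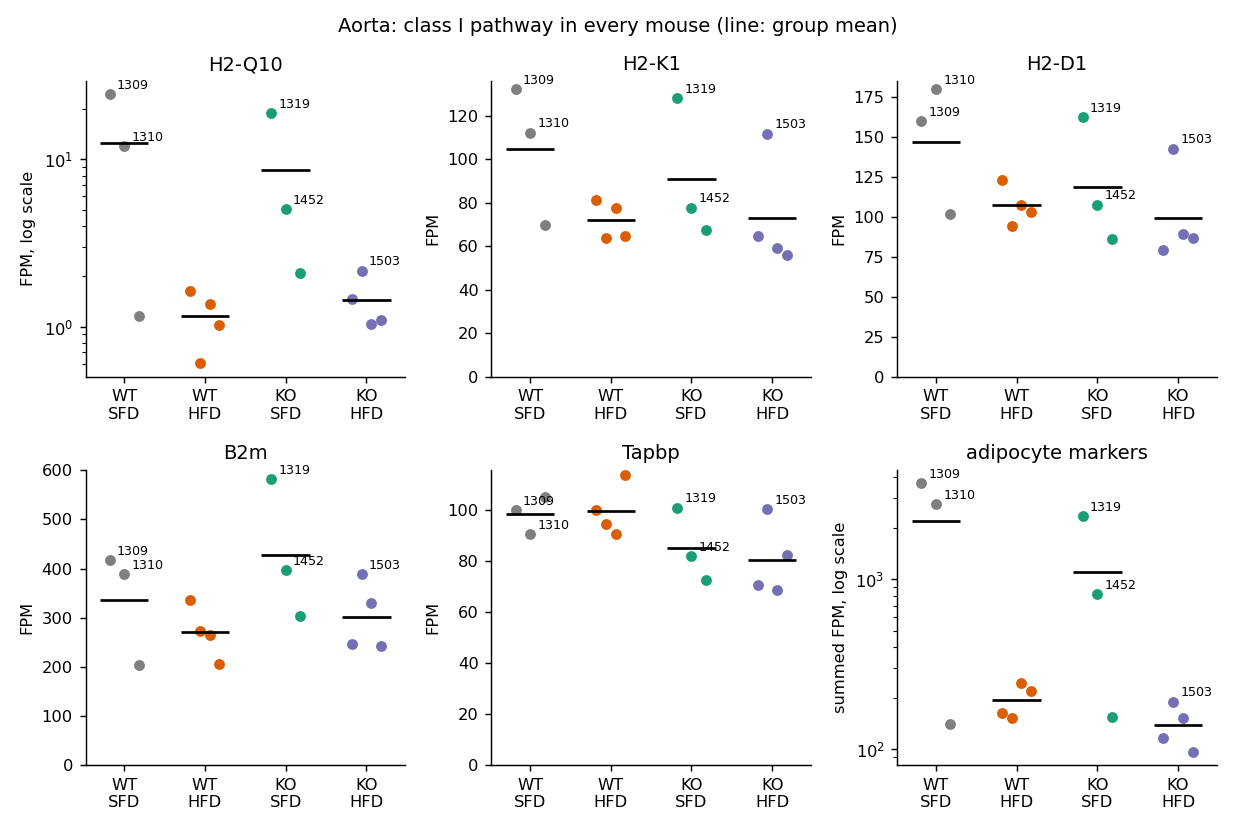
Aorta levels in FPM of H2-Q10 (log axis), H2-K1, H2-D1, B2m and Tapbp, and the summed FPM of the 10 adipocyte markers (log axis), for each of the 14 mice in 4 groups (points), with the group mean (line). H2-Q10 and the adipocyte markers are high in WT-SFD-1309 and WT-SFD-1310 and KO-SFD-1319 and KO-SFD-1452, and WT-SFD-1445 has 1.16 FPM of H2-Q10.

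Within each genotype edgeR called 0 of the 27 genes in the aorta. In WT edgeR called 0% of all genes. DESeq2 called 1 of the 27 there (H2-Q10, adjusted p = 0.0118), and its share over all genes is not given here. H2-Q10, H2-Q1 and H2-DMb2 had an unadjusted p under 0.05 with edgeR in WT (1 higher, 2 lower), beside 17% of all genes. In KO, where edgeR called 0% of all genes and DESeq2 called 0 of the 27, H2-Q10 and H2-Ob had an unadjusted p under 0.05, both lower, beside 7.85%.

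**Figure D4:**
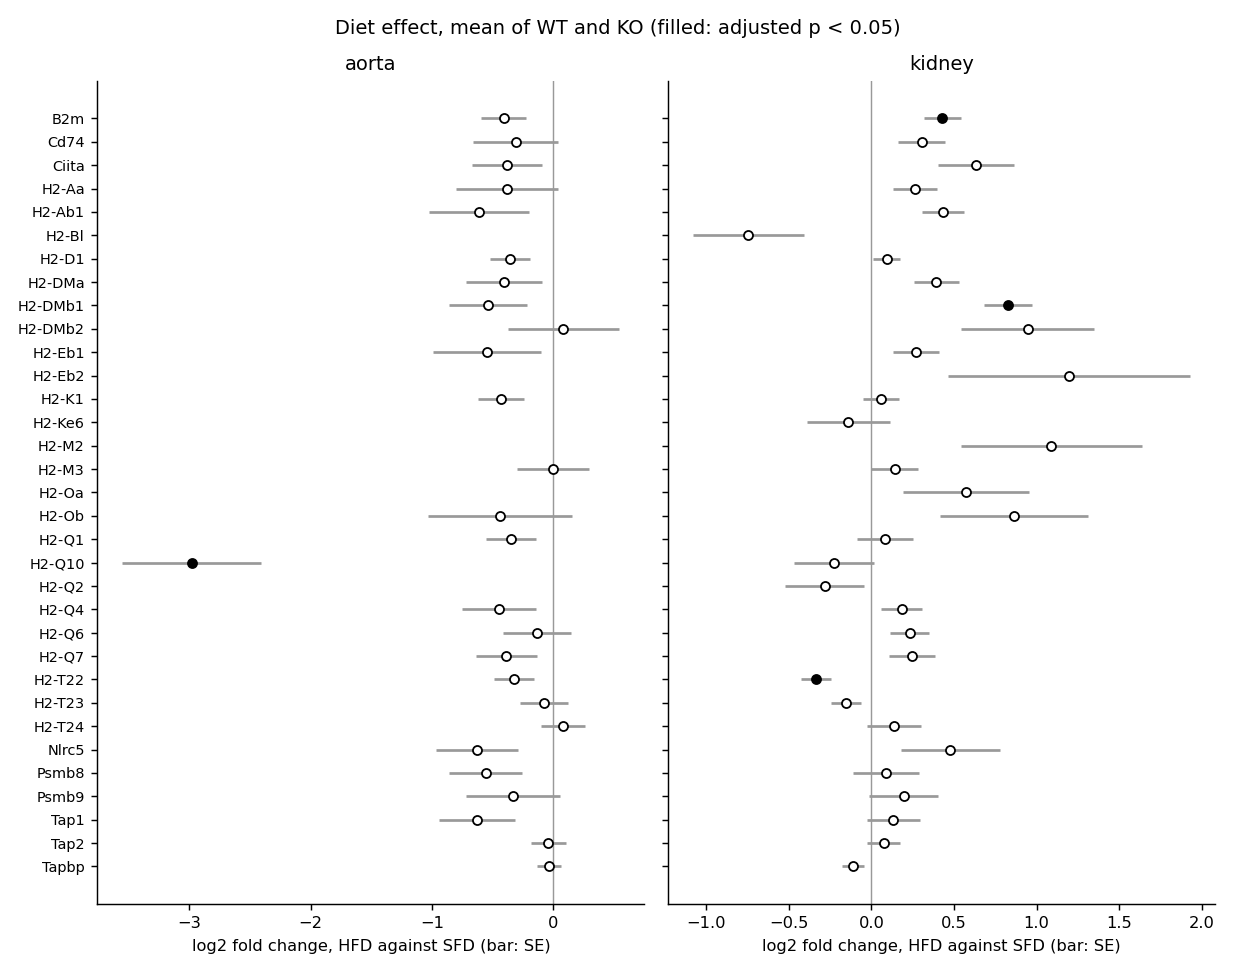
Log2 fold change of HFD against SFD, averaged over WT and KO, for the MHC and antigen presentation genes tested in aorta (27) and kidney (33), with the SE as bar; the 2 panels have different scales. Filled symbols have an edgeR adjusted p under 0.05, which are H2-Q10 in the aorta (-2.98) and H2-DMb1 (0.83), B2m (0.43) and H2-T22 (-0.33) in the kidney.

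Class II genes were high in the aortae of single KO mice. Cd74 had 61.6, 48.5 and 29.5 FPM in WT-SFD, 51.8, 30.6, 46.5 and 26.9 FPM in WT-HFD, 146, 61.7 and 67.7 FPM in KO-SFD, and 34.1, 165, 52.0 and 33.4 FPM in KO-HFD. The KO-SFD aortae were all at or above the highest WT-SFD aorta, by little in 2 of 3, and 3 of the 4 KO-HFD aortae lay within the WT-HFD range or within 1 FPM of it. Over both diets the log2 difference of Cd74 between KO and WT was 0.93 ± 0.35, which did not pass (edgeR, adjusted p = 0.648). The class II chains H2-Eb1 (1.06 ± 0.45, adjusted p = 0.678), H2-Aa (0.90 ± 0.42, adjusted p = 0.699) and H2-Ab1 (0.78 ± 0.42, adjusted p = 0.728) and the activator Ciita (0.63 ± 0.29, adjusted p = 0.69) stood likewise above WT without passing.

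These differences leaned on KO-HFD-1503 and KO-SFD-1319. H2-Eb1 had 51.4 FPM in KO-HFD-1503 and 7.58 to 10.5 FPM in the other KO-HFD aortae, and 45.0 FPM in KO-SFD-1319 beside 14.8 and 15.05 FPM. Without KO-HFD-1503 the log2 differences were 0.52 for Cd74, 0.51 for H2-Eb1, 0.41 for H2-Aa, 0.34 for H2-Ab1 and 0.40 for Ciita. Without KO-SFD-1319 they were 0.68 for Cd74, 0.70 for H2-Eb1, 0.57 for H2-Aa, 0.37 for H2-Ab1 and 0.56 for Ciita. The kidney of KO-SFD-1319 was not high in the class II chains. It was the lowest of its group for Cd74 (167 FPM), H2-Eb1 (108), H2-Aa (61.2) and H2-Ab1 (194), and the highest for Ciita (5.57 FPM).

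The leucocyte markers of the aorta (6 of 6 tested, most abundant Laptm5, Ptprc never under 4.77 FPM) were highest in KO-SFD-1319, WT-HFD-1442 and KO-HFD-1503. They summed to 42.9, 42.1 and 52.6 FPM in WT-SFD, 94.1, 40.4, 61.6 and 44.1 FPM in WT-HFD, 151, 61.0 and 80.8 FPM in KO-SFD, and 34.4, 115, 45.8 and 47.2 FPM in KO-HFD. Itgax had 9.38 FPM in KO-SFD-1319 and 4.51 FPM in KO-HFD-1503, with at most 1.25 FPM in the other 12 aortae. The macrophage markers (10 of 11 tested, most abundant Mertk) summed to 246 to 289 FPM in WT-SFD, 250.2 to 365 FPM in WT-HFD, 330.5 to 352 FPM in KO-SFD and 279 to 470.0 FPM in KO-HFD, again with KO-HFD-1503 the highest. None of the 10 was called by edgeR between KO and WT over both diets, and 4, all with higher values in KO, had an unadjusted p under 0.05, beside 7.17% of all genes. With the leucocyte markers as a covariate the log2 differences between KO and WT were 0.24 for Cd74, 0.12 for H2-Eb1, 0.08 for H2-Aa, -0.07 for H2-Ab1 and 0.25 for Ciita, and none passed (edgeR, adjusted p values of 0.842 to 0.971).

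**Figure D5:**
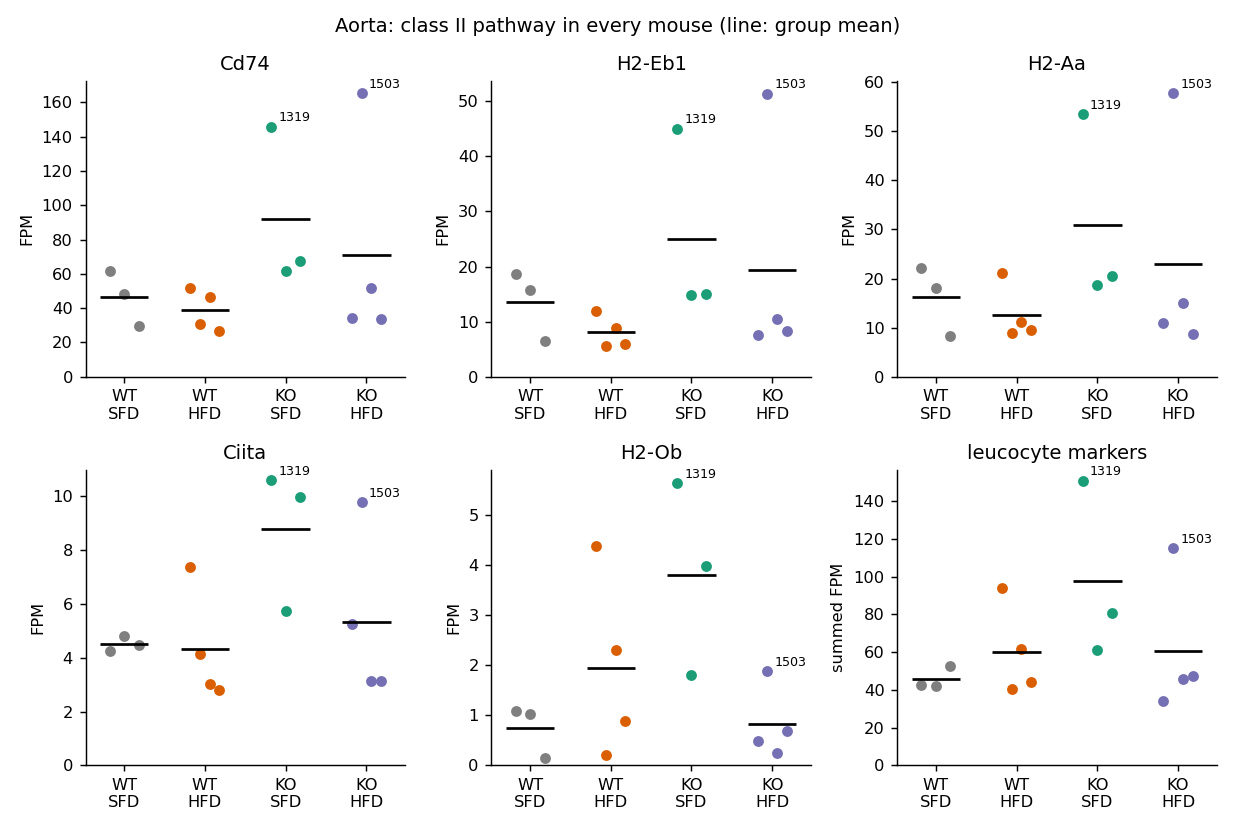
Aorta levels in FPM of Cd74, H2-Eb1, H2-Aa, Ciita and H2-Ob, and the summed FPM of the 6 leucocyte markers, for each of the 14 mice in 4 groups (points), with the group mean (line). KO-SFD-1319 and KO-HFD-1503 are the highest of their groups in every panel, with 146 and 165 FPM of Cd74.

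For KO against WT in the aorta edgeR and DESeq2 each called 0 of the 27 genes on either diet and over both. On SFD edgeR called 0.0811% of all genes, and H2-Ob, H2-DMb2 and Ciita, all with higher values in KO, had an unadjusted p under 0.05, beside 6.54%. On HFD edgeR called 0.0811% as well, and H2-Eb1 (higher) and Tapbp (lower) had an unadjusted p under 0.05, beside 5.35%. Averaged over the diets 0.196% of all genes were called, and 4 of the 27, Cd74, H2-Eb1 and Ciita with higher and Tapbp with lower values, had an unadjusted p under 0.05, beside 7.17%. Tapbp, which holds empty class I molecules next to the peptide transporter, had 90.5 to 105 FPM in WT-SFD, 90.5 to 113 FPM in WT-HFD, 72.3 to 101 FPM in KO-SFD and 68.4 to 100.2 FPM in KO-HFD. The groups overlapped and the log2 difference of Tapbp was -0.26 ± 0.10 (adjusted p = 0.655), with 29.0% of its exon bases shared with Zbtb22 and Gm19412.

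For the difference of the diet effect between KO and WT aortae both tools called 0 of the 27, beside 0% of all genes by edgeR, and H2-Ob and H2-DMb2 had an unadjusted p under 0.05, beside 4.37%. H2-Ob had 1.09, 1.03 and 0.144 FPM in WT-SFD, 4.39, 0.201, 2.29 and 0.895 FPM in WT-HFD, 5.63, 1.81 and 3.99 FPM in KO-SFD, and 0.489, 1.88, 0.240 and 0.684 FPM in KO-HFD. Thus KO-SFD was the highest group, and the WT groups overlapped. The difference of the diet effects was -3.50 ± 1.13 for H2-Ob and -2.76 ± 0.91 for H2-DMb2 (edgeR, adjusted p = 0.998 for both). Of the B cell markers 7 of 8 were tested. By median Cd79a led them narrowly (1.88 FPM, beside 1.81 FPM for Cd22), and Ms4a1 and Blk were at 0 in the lowest aorta. The B cell markers summed to 5.46, 5.64 and 7.65 FPM in WT-SFD, 34.3, 4.02, 17.5 and 9.85 FPM in WT-HFD, 36.8, 11.7 and 30.3 FPM in KO-SFD, and 3.55, 15.8, 2.64 and 6.02 FPM in KO-HFD. Their part in the H2-Ob and H2-DMb2 values was not tested.

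Of the other genes listed for the pathway, 30 were tested in each tissue. In the kidney 3 of the 30 rose on HFD over both genotypes and 0 fell, beside 4.62% of all genes called, and 8 (all higher) had an unadjusted p under 0.05, beside 18.2%. The 3 were the lysosomal proteases Ctsl (0.48 ± 0.10, edgeR adjusted p = 0.0111) and Lgmn (0.56 ± 0.12, adjusted p = 0.0124), which trim the invariant chain and antigens and are also abundant in tubule cells, and the costimulatory receptor Cd40 (0.55 ± 0.14, adjusted p = 0.0353). Lgmn also rose within KO (0.70 ± 0.17, adjusted p = 0.0431). Lgmn had 480 to 766 FPM in WT-SFD, 711 to 973 FPM in WT-HFD, 485 to 665 FPM in KO-SFD and 783 to 1239 FPM in KO-HFD, so that the KO groups did not overlap. Ctsl had 330 to 404 FPM in WT-SFD and 464 to 541 FPM in WT-HFD, without overlap, and 307 to 453 FPM in KO-SFD and 415 to 663 FPM in KO-HFD.

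In the aorta 1 of the 30 fell on HFD over both genotypes and 0 rose, beside 3.95% of all genes called, and 7 (2 higher, 5 lower) had an unadjusted p under 0.05, beside 18.8%. It was Cd1d1, which presents lipids to NKT cells, with a log2 fold change of -3.52 ± 0.66 (edgeR, adjusted p = 0.0168). Cd1d1 had 36.3, 35.9 and 1.73 FPM in WT-SFD, 1.53, 1.41, 2.92 and 2.30 FPM in WT-HFD, 24.2, 6.27 and 1.27 FPM in KO-SFD, and 0.122, 1.78, 0.960 and 0.684 FPM in KO-HFD. Its high aortae were those of H2-Q10, which had the high adipocyte markers. DESeq2 called Cd1d1 lower in this comparison too. In the remaining comparisons of either tissue edgeR called 0 of the 30, except Lgmn in KO kidneys, with 0 to 5 at an unadjusted p under 0.05, beside 1.75% to 17% of all genes. DESeq2 called Cd1d1 in WT aortae and Ctsl and Lgmn in KO kidneys, and its shares over all genes are not given here.

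The 22 interferon-induced genes, all tested, gave 0 calls with edgeR and with DESeq2 in each comparison of both tissues, and 0 to 5 of them had an unadjusted p under 0.05, beside 1.75% to 18.8% of all genes. The smallest adjusted p over both genotypes belonged to Isg15 in the aorta (1.00 ± 0.31, edgeR adjusted p = 0.0889) and to Irgm1 in the kidney (0.34 ± 0.11, adjusted p = 0.0985). In that comparison 4 of the 22 in the aorta (1 higher, 3 lower) and 1 in the kidney (higher) had an unadjusted p under 0.05, beside aortic and renal shares over all genes of 18.8% and 18.2%. Single aortae stood apart here as for the MHC genes. The sum of the 22 was highest in KO-HFD-1503, at 340 FPM beside 166 to 191 FPM in the other KO-HFD aortae. KO-SFD-1319 followed with 274 FPM, beside 207 and 169 FPM in the other KO-SFD aortae.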

How the data were processed

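The authors trimmed reads with cutadapt, aligned them to mm10 with TopHat and used featureCounts for the gene counts, and deposited these raw counts, 1 column per mouse. The strand setting, the counting annotation and the treatment of multi-mapping reads are not given in the sources used here. FPM, FPKM (GENCODE vM21 exon lengths) and all tests were computed here in R 4.3.3.

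Counts were filtered by filterByExpr (minimum count 10, minimum total 15), which kept 14796 aortic and 15034 renal genes, and TMM-scaled. Each tissue was fitted alone with edgeR 4.0.16 (glmQLFit, glmQLFTest) on group means and 7 contrasts, with Benjamini-Hochberg adjustment over all genes. The scripts were tested on simulated data. The samples of a group are separate mice. Alternatives were DESeq2 1.42.0, edgeR's legacy test, RLE factors, library totals, no low count filter, only protein-coding genes, only the groups compared, an adjusted p under 0.001, adipocyte and leucocyte markers as covariates, and leaving out each mouse. The legacy test, the leucocyte covariate and the adipocyte covariate in the kidney were added with the data in view. All shares over all genes are from edgeR, and those of DESeq2 are not given.

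The genes and lists were chosen with earlier results of these data known. Genes were named by role in the pathway and if called in any contrast. Genes of other lists were named if called, otherwise those with the smallest p. The 8 H2 rows that are not protein-coding were left out. Chromosomes 9, X, Y and MT and part of chromosome 8 had no counts and were not analysed here. Promoters came from RefSeq (GRCm38.p6), with 37 of 45 genes matched. A UTR in GENCODE limited the printed windows of H2-DMb1 and H2-D1 to 30 bases. The results of some genes are left out here.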

Additional observations from a re-analysis of the deposited data

Results flagged for a closer look

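For 23 named genes, 130 groups of 4 mice were searched for a mouse far from the other 3 (Dixon's criterion), which chance flags in about 1 group in 20, and 16 were found. Aorta KO-HFD-1503 was above the other 3 aortae of its group for 10 genes: Cd74 with 165 FPM (the others 33.4 to 52.0), H2-Aa with 57.8 (8.62 to 14.96), H2-Ab1 with 55.7 (9.90 to 14.6), H2-Eb1 with 51.4 (7.58 to 10.5), H2-DMa with 5.35 (1.83 to 2.08), H2-DMb2 with 2.91 (0.480 to 0.821), H2-K1 with 112 (56.2 to 64.7), H2-D1 with 143 (79.1 to 89.0), H2-T23 with 24.1 (11.5 to 12.2) and Psmb8 with 5.17 FPM (2.16 to 2.33). Kidney KO-HFD-1504 was above its group for H2-DMb2 with 21.7 FPM (4.83 to 6.14), H2-Eb1 with 199 (139 to 148), H2-K1 with 552 (439 to 454) and Psmb9 with 25.0 FPM (11.6 to 13.2). Kidney WT-HFD-1535 stood apart for Ciita with 10.5 FPM (5.20 to 6.02) and kidney KO-SFD-1318 for H2-DMb1 with 39.2 FPM (21.7 to 23.7).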

How the results depend on the processing

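The number of called genes moved as follows. In WT aortae it was 0 with edgeR and 1 with library totals, without a low count filter or with DESeq2 (0 to 1 leaving out 1 mouse). In the aorta averaged over the genotypes it was 1, and 0 with the adipocyte covariate, with the leucocyte covariate or at an adjusted p under 0.001 (0 to 2 leaving out 1 mouse, 2 without WT-SFD-1445). In WT kidneys it was 1, and 0 at 0.001 (0 to 1 leaving out 1 mouse). In KO kidneys it was 0 (0 to 1 leaving out 1 mouse). In the kidney averaged over the genotypes it was 3, with 1 under the leucocyte covariate, 0 at 0.001, 4 with DESeq2 or library totals, and 1 to 3 leaving out 1 mouse (1 without WT-HFD-1535, KO-HFD-1504 or KO-HFD-1558). The log2 fold change turned for H2-K1 (0.12), H2-D1 (0.15) and B2m (0.18) on HFD in the aorta with the adipocyte covariate and, with the leucocyte covariate, for H2-Ab1 (-0.070) between KO and WT aortae and for H2-Ob (-0.080) on HFD in the kidney. The cause was not tested. Library totals moved the median of all aortic genes to 0.27 for KO against WT on SFD, 0.17 over both diets, -0.20 for the difference of diet effects and -0.11 for the diet in KO. No paired analysis was possible because the groups compared share fewer than 2 mouse numbers. The depth of the aortae limits genes such as H2-Ob, whose counts are few.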
